A study of Mus musculus with 15 samples.

Results

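The Dsp and Chst9 type of dentate granule neurons comprised 3057 of 19751 granule nuclei, and of 134019 barcodes in all, in single-nucleus RNA-seq (snRNA-seq) of the dorsal hippocampal formation (dHF) of 15 female C57BL/6J mice. Granule nuclei were barcodes with at least 500 genes detected, at least 2 unique molecular identifiers (UMIs, counts of captured RNA molecules) of Prox1, at least 2 of Glis3 and at most 1 of Gad1 and Gad2 together. A granule nucleus belonged to the type when its UMIs of Chst9, Dsp, Npnt, Cnih3 and Il1r1 summed to at least 3 and exceeded the sum of Trpc6, Gpc4, Stxbp6 and Gsg1l. The opposite rule gave 15935 nuclei of the Trpc6 and Gpc4 type, and 759 granule nuclei fell in neither. The nuclei were thus chosen by their measured UMIs of these genes, whose levels describe the rule and are not results.

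The mice were wild type. The 6 NP females were virgin and nulliparous, and were age-matched to the dams. The 4 control RE females had the whole of reproductive experience (RE), which is mating, pregnancy, birth, lactation and contact with pups. The 5 stress RE females had the same experience together with daily separation from the litter and limited nesting material in the postpartum period. Each library came from bilateral micropunches of 1 mouse, and the punches also took in cortical, thalamic and ventral hippocampal tissue. The labels name 3 batches, with 2 NP mice in each, 2 control RE mice in each of batches 2 and 3 and none in batch 1, and 1, 2 and 2 stress RE mice in batches 1, 2 and 3. The study's methods describe every group as present in each processing batch, which batch 1 of the labels is not, so the labelled batches may not be those processing batches.

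Granule neurons are the principal excitatory neurons of the dentate gyrus. They receive input from the entorhinal cortex and send mossy fibres to CA3, and new ones are added in adulthood. Prox1 is the transcription factor that sets their identity. Dsp encodes desmoplakin, which ties intermediate filaments to desmosomes, Chst9 a sulfotransferase that acts on N-acetylgalactosamine, Npnt a matrix ligand of integrins, Cnih3 an auxiliary subunit of AMPA receptors, and Il1r1 the receptor of interleukin-1. On the opposing side of the rule, Trpc6 encodes a cation channel, Gpc4 a glypican, Stxbp6 a syntaxin-binding protein and Gsg1l another AMPA receptor auxiliary subunit.

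Libraries held 40602582 to 96211264 UMIs in 5789 to 12738 barcodes. The type contributed 75 nuclei in the mouse with fewest (NP mouse 31) and 374 in the mouse with most (stress RE mouse 90), with 760493 to 4512323 UMIs per mouse. The median member had 10835 UMIs and 3531 genes, against 10135 UMIs in the Trpc6 and Gpc4 type and 7370 in the nuclei of neither. No member exceeded 5% mitochondrial UMIs. In each library the barcodes with the highest doublet scores from Scrublet were marked as doublets, up to a number set by library size. These were 291 members (9.52%), 12.6% of the Trpc6 and Gpc4 nuclei and 7.47% of all barcodes, the last fixed by that number. Of 131768 barcode sequences, 2211 occurred in more than 1 library, which touched 104 members.

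The label of granule neuron was checked on 9 granule markers that the rule did not use, which include Calb1, C1ql2, C1ql3, Plk5 and Lct. Counts were summed over the nuclei of a type in each mouse and expressed as CPM, each count scaled to the same total per mouse and type. The 9 markers summed to 2324 to 2778 CPM in the Dsp and Chst9 nuclei, with a median over mice of 2542 CPM. The median was 2615 CPM in the Trpc6 and Gpc4 nuclei and 1126 CPM in all barcodes that were not granule nuclei. Markers of oligodendrocytes summed to 138 to 457 CPM in the Dsp and Chst9 nuclei against a median of 1392 CPM outside the granule nuclei, and none of the 5 was at 0 over all mice. The sum of 6 GABAergic markers was not lower in the Dsp and Chst9 nuclei, with a median of 1669 CPM against 1620 CPM outside the granule nuclei. Nearly all of it was Adarb2 (1655 against 1528 CPM). Of the 9 granule markers, Plk5 was no higher in the Dsp and Chst9 nuclei (18.1 CPM) than outside the granule nuclei (19.5 CPM). Against the Trpc6 and Gpc4 nuclei, 3 of the 9 were higher in all mice and 3 lower, beside 5.22% and 7.28% of all genes. Of the lower ones 2, Plk5 among them, had a mean log2 ratio of at least 1 in size. Neuroblast and immature granule markers summed to a median of 45.9 CPM, against 66.9 CPM in the Trpc6 and Gpc4 nuclei.

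The sums that chose the type formed a range that the cut divided, as a description of the rule genes' own UMIs. Among 18075 granule nuclei with at least 10 UMIs of the 9 opposing genes, the 5 genes of the Dsp and Chst9 side made up 0 to 10% of those UMIs in 24.4% of nuclei. The share of nuclei then fell in each further step of 10 percentage points, through 8.93% of nuclei at 40 to 50% and 7.76% at 50 to 60%, to 0.299% at 90 to 100%. In the pooled nuclei no step rose. In stress RE mouse 77 the share rose from 7.74% at 40 to 50% to 11.0% at 50 to 60%, and it also rose there in NP mouse 27 (8.55% to 9.43%) and stress RE mouse 90 (8.29% to 8.49%). The cut therefore passed through nuclei of similar values. Of the members, 418 exceeded the opposing sum by 1 UMI and 51 sat at the minimum of 3 UMIs. Just outside, 406 granule nuclei had equal sums of at least 3, 495 Trpc6 and Gpc4 nuclei exceeded by 1, and 33 granule nuclei had a leading sum of only 2. Members also carried the opposing genes, with a sum of at least 3 UMIs in 88.8% of them.

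**Figure D1:**
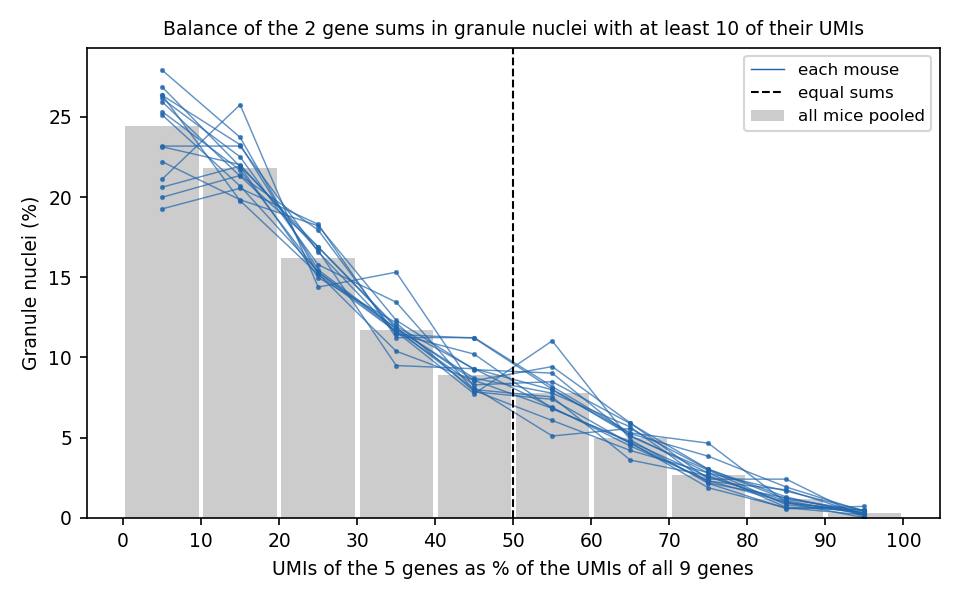
UMIs of Chst9, Dsp, Npnt, Cnih3 and Il1r1 as a percentage of the UMIs of all 9 opposing genes (x axis) against the percentage of granule nuclei (y axis), for 18075 nuclei pooled (bars) and for each of the 15 mice (lines). The pooled bars decline from 24.4% to 0.299%, and the dashed line of equal sums lies on that slope.

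The 5 genes did not contribute equally. Chst9 supplied 46.2% of the members' UMIs of the 5 genes, Cnih3 23.4%, Dsp 11.2%, Npnt 9.75% and Il1r1 9.45%. All 5 were detected in 891 members, 4 of them in 1141, 3 in 744, 2 in 247 and only 1 in 34. Chst9 alone equalled or exceeded the other 4 genes together in 1346 members, and Dsp did so in 46.

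The values that chose the members were as follows, as a description. Chst9 ranged over mice from 444 to 622 CPM (median 538 CPM) in the Dsp and Chst9 nuclei and from 137 to 212 CPM (median 185 CPM) in the Trpc6 and Gpc4 nuclei. Dsp (chromosome 13, 38151294 to 38198577, plus strand, GRCm38) ranged from 102 to 178 CPM against 49.9 to 72.9 CPM. The mice did not overlap between the types for any of the 9 opposing genes. Levels in oligodendrocytes averaged 16.9 CPM for Chst9 and 5.86 CPM for Dsp, but 502 CPM for Stxbp6. On the opposing side Gsg1l ranged from 10.4 to 23.6 CPM in the Dsp and Chst9 nuclei against 112 to 186 CPM, and Trpc6 from 81.0 to 144 CPM against 402 to 531 CPM. Gpc4 showed the smallest separation of the 4, with means of 104 and 187 CPM.

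What the type shared beyond the 9 genes was described with the ratio of the 2 granule types within each mouse, as log2(CPM + 5). Since nuclei were sorted by genes of this same contrast, no test was applied to it. A gene was counted when its mean over the 15 mice was at least 1 on this scale in size and every mouse had the same sign. Of 14221 genes, 35 were counted as higher in the Dsp and Chst9 type (0.246% of genes) and 56 as lower (0.394%). A smaller or larger difference of the same sign in all 15 mice was seen for 742 higher genes (5.22%) and 1035 lower genes (7.28%). That balance depended on the scaling, with 905 higher and 825 lower under TMM library sizes, and 432 and 529 with nuclei thinned to 3000 UMIs. The median of all genes was -0.04. The counts depended on the pseudocount, with 63 higher and 154 lower at 1 CPM and 14 and 15 at 20 CPM.

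Col23a1, a transmembrane collagen (chromosome 11, 51289920 to 51583918), ranged over mice from 42.3 to 103 CPM (median 55.6 CPM) in the Dsp and Chst9 nuclei and from 9.70 to 24.9 CPM (median 12.1 CPM) in the Trpc6 and Gpc4 nuclei, a mean log2 ratio of 1.81 ± 0.16 (SD, n = 15). Every mouse was higher in the Dsp and Chst9 type, and the ranges did not overlap. Hectd2, a ubiquitin ligase (chromosome 19, 36554639 to 36621135), ranged from 281 to 559 CPM (median 462 CPM) against 106 to 166 CPM (median 144 CPM), a ratio of 1.60 ± 0.12. Its antisense transcript Hectd2os, which overlaps it on the opposite strand, had a ratio of 1.41 ± 0.31, and its ranges of 11.8 to 219 CPM and 5.29 to 83.7 CPM overlapped between mice. These 15 genes were picked for the highest ratios, with the same sign in all mice and at least 20 CPM in the higher type. Their separation between the types therefore describes that choice. Hectd2os was the only 1 of the 15 with overlapping ranges. Of all genes, 1.22% had the Dsp and Chst9 range wholly above.

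Ryr1, the calcium release channel of internal stores, ranged from 75.9 to 267 CPM against 26.8 to 69.1 CPM (ratio 1.44 ± 0.21). Cacna1g, a T-type calcium channel, averaged 36.2 CPM against 13.0 CPM (1.21 ± 0.27), and the calmodulin kinase gene Camk4 162 CPM against 64.1 CPM (1.28 ± 0.15). These 3 were higher in each of the 15 mice, as the choice of genes required. Ror1, a receptor of Wnt5a, averaged 261 CPM against 110 CPM (1.22 ± 0.16), and the ligand gene Wnt9a 32.3 CPM against 10.9 CPM (1.21 ± 0.20). Ror1 shares its strand with the transcript Gm12701, so reads of these overlapping genes could not be fully separated.

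The transcriptional repressor gene Bcl6 ranged from 82.1 to 133 CPM against 25.5 to 45.9 CPM (1.44 ± 0.16). Pmepa1, an inhibitor of TGF-β signalling, averaged 51.5 CPM against 13.9 CPM (1.56 ± 0.16), and the neuronal sorting receptor gene Sorcs2 312 CPM against 115 CPM (1.39 ± 0.11). Rhbdl3, Moxd1, Tspan18 and Akain1 completed the 15, with ratios from 1.24 to 1.48.

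Among the 15 genes with the lowest ratios, Nrg1, the ligand of ErbB receptors (chromosome 8, 31814551 to 32884029), ranged over mice from 233 to 479 CPM (median 278 CPM) in the Dsp and Chst9 nuclei and from 821 to 1371 CPM (median 1001 CPM) in the Trpc6 and Gpc4 nuclei, a ratio of -1.76 ± 0.26. Mapk4, an atypical MAP kinase, ranged from 38.3 to 108 CPM against 208 to 285 CPM (-2.01 ± 0.38). For both genes every mouse was lower in the Dsp and Chst9 type, with no overlap of ranges. The long non-coding RNA Gm6999 had the lowest ratio of the 30, -2.05 ± 0.34, and it overlaps Olfm4 and Gm49542 on the same strand. The activin-type receptor gene Acvr1c averaged 30.0 CPM against 88.8 CPM (-1.43 ± 0.24) and the nuclear receptor gene Pparg ranged from 4.77 to 10.8 CPM against 22.1 to 37.9 CPM (-1.51 ± 0.20). Plk5, a polo-like kinase of neurons and itself a granule marker, averaged 18.1 CPM against 71.4 CPM (-1.74 ± 0.20).

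The αv and β8 integrin subunits, which form a pair that activates latent TGF-β, were both among these 15. Itgav averaged 11.5 CPM against 36.8 CPM (-1.37 ± 0.40) and Itgb8 24.1 CPM against 68.1 CPM (-1.35 ± 0.26). Both, with Fbxo32 (6.52 against 22.9 CPM), stood at higher levels in oligodendrocytes, at 112, 99.5 and 104 CPM. The 5 oligodendrocyte markers summed to a median of 200 CPM in the Dsp and Chst9 nuclei and 310 CPM in the Trpc6 and Gpc4 nuclei, and the part of oligodendrocyte RNA in these 3 differences was not tested. Prr16, Rasgrp1, Parp8, Necab3, Sorcs3 and Plpp4 completed the list, with ratios from -1.55 to -1.29. These 15 genes were picked in the same way for the lowest ratios, and all had ranges wholly below those of the Trpc6 and Gpc4 nuclei. Of all genes, 1.38% had such ranges.

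**Figure D2:**
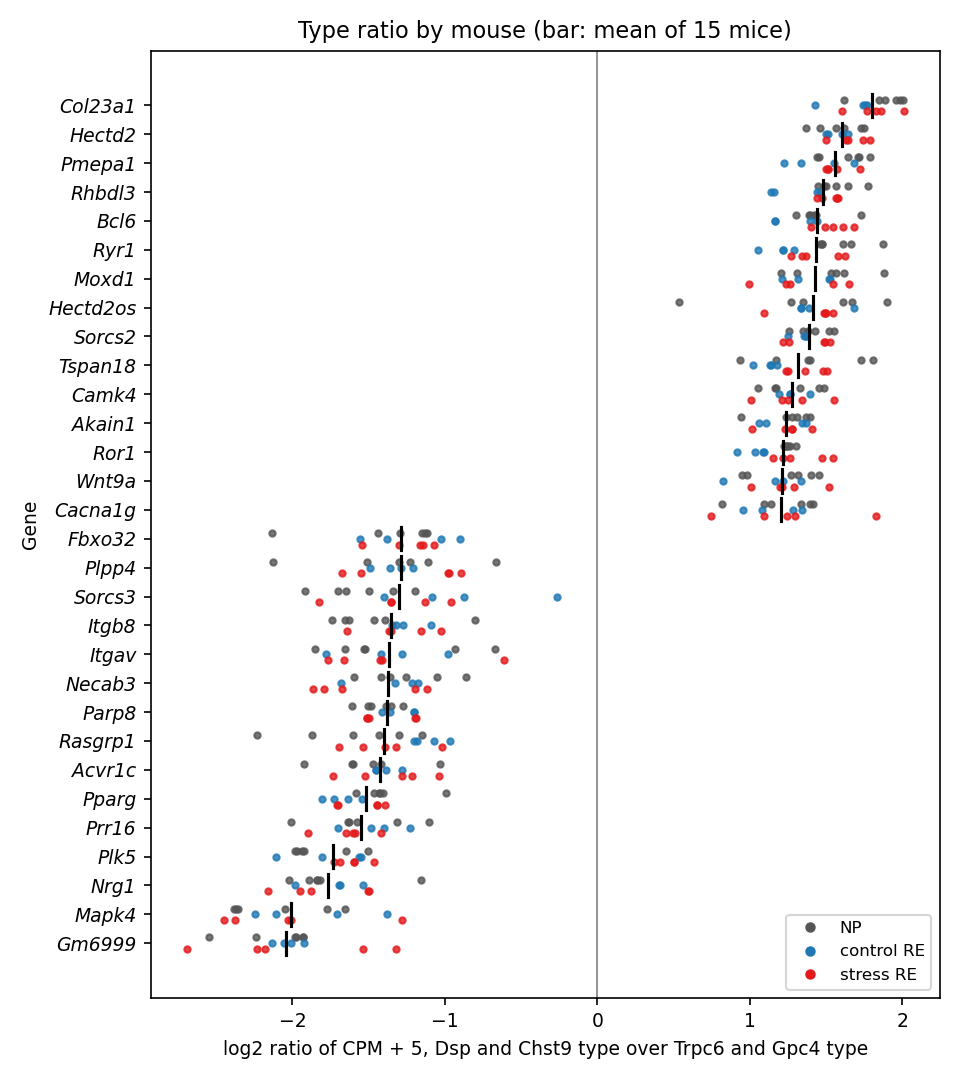
Log2 ratio of CPM + 5 in the Dsp and Chst9 nuclei over the Trpc6 and Gpc4 nuclei (x axis) for the 15 highest and 15 lowest genes outside the rule (y axis), with 1 point per mouse coloured by group and a bar at the mean of 15 mice. The genes were picked for the same sign in all mice, so the upper 15 lie above 0 and the lower 15 below it, from -2.69 to 2.01.

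The levels of 8 of these genes were also followed along the balance of the 2 gene sums. Since the classes came from the rule genes and the genes were picked from the same contrast, a difference between the outer classes was set beforehand, and the values are a description. Granule nuclei with at least 10 UMIs of the 9 genes were divided into 5 classes by the percentage that came from the Dsp and Chst9 side, with 4419, 5491, 5118, 2579 and 468 nuclei. Hectd2 averaged 80.2, 109, 223, 421 and 583 CPM over mice from the class of 0 to 10% to that of 75 to 100%. Nrg1 averaged 1705, 1090, 567, 326 and 220 CPM in the same order. Col23a1 went from 3.46 ± 1.21 CPM to 75.1 ± 12.6 CPM and Mapk4 from 406 ± 45.8 CPM to 38.7 ± 18.7 CPM (SD, n = 15).

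**Figure D3:**
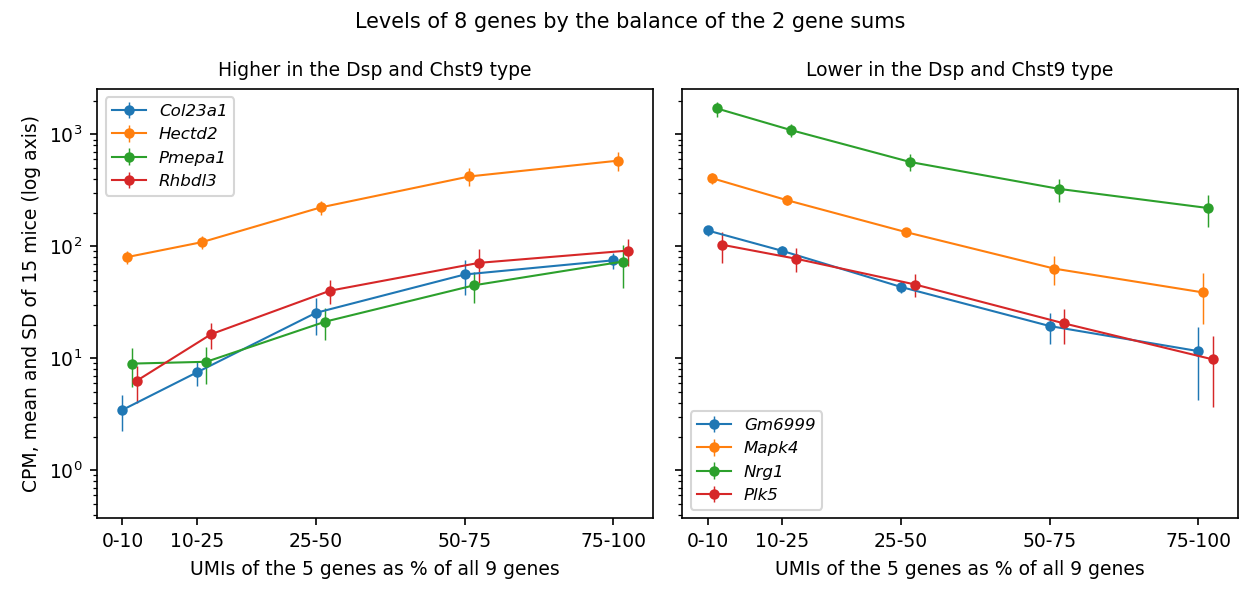
Mean CPM with SD over 15 mice (log y axis) of 4 genes higher (left) and 4 lower (right) in the Dsp and Chst9 type, against the percentage of the 9 genes' UMIs that came from the Dsp and Chst9 side (x axis, 5 classes). The genes were picked for their difference between the 2 sides, with Hectd2 from 80.2 to 583 CPM and Nrg1 from 1705 to 220 CPM.

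Partners of the genes that define the type were followed through lists of related genes, outside the rule genes themselves. Interleukin-1 signals through Il1r1 together with its accessory protein. Of 14 measured genes of interleukin-1 signalling, 2 were higher in all mice and none lower, beside 5.22% and 7.28% of all genes. Il1rap, the accessory protein, averaged 1100 CPM against 673 CPM (0.70 ± 0.11), and the related Il1rapl2 130 CPM against 64.8 CPM (0.95 ± 0.33). The median of the 14 was -0.01 beside -0.04 for all genes.

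Of 8 measured desmosome and plakin genes, Pkp2 (0.24 ± 0.14) and Dst (0.23 ± 0.07) were higher in all 15 mice, while Ppl was lower in all at 2.93 CPM against 11.1 CPM (-1.04 ± 0.26). The small differences of Pkp2 and Dst lay well under the size used for counting. Among 21 sulfotransferases that modify glycans, 5 were higher in all mice and 3 lower, beside 5.22% and 7.28% of all genes. Ust averaged 503 CPM against 265 CPM (0.91 ± 0.11), Chst1 159 CPM against 85.6 CPM (0.84 ± 0.13) and Hs6st1 34.2 CPM against 17.3 CPM (0.80 ± 0.16), whereas Chst7 stood at 2.10 CPM against 6.68 CPM (-0.74 ± 0.32). Of 7 measured heparan sulfate proteoglycans, 2 were lower in all mice, which were Gpc3 (-0.88 ± 0.32) and Sdc2 (-0.47 ± 0.15), and none higher.

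Counts of the lists that follow also stand beside 5.22% of all genes higher and 7.28% lower in all mice. Of 13 auxiliary subunits of AMPA receptors, 4 were higher in all mice, led by Cacng5 at 23.0 CPM against 8.56 CPM (1.04 ± 0.21), and 2 were lower, with Cacng3 at 71.8 CPM against 110 CPM (-0.59 ± 0.10). Of 15 subunits of AMPA, NMDA and kainate receptors, 6 were higher and 2 lower. The 2 lower ones were kainate receptor genes, Grik2 (1507 against 2136 CPM, -0.50 ± 0.06) and Grik4 (-0.43 ± 0.21), and the kainate gene Grik3 was higher (0.53 ± 0.11). Metabotropic glutamate receptor genes were lower in 5 of 7 cases, with Grm8 at 48.2 CPM against 105 CPM (-1.11 ± 0.39), while Grm2 was higher at 55.5 CPM against 31.7 CPM (0.71 ± 0.17). Of 12 GABA-A receptor subunits 6 were lower, such as Gabra2 (-0.45 ± 0.07), and 3 higher, such as Gabra5 (0.45 ± 0.12), which carries extrasynaptic inhibition.

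Trpc6 stood on the opposing side of the rule, but its relatives Trpc5 and Trpc4 were higher in the Dsp and Chst9 type. Trpc5 averaged 385 CPM against 182 CPM (1.06 ± 0.11) and Trpc4 280 CPM against 158 CPM (0.81 ± 0.15), each higher in all 15 mice. Trpm3 was also higher (0.37 ± 0.06), so that 3 of 10 measured TRP channels were higher in all mice and none lower, beside 5.22% and 7.28% of all genes. Potassium channel subunits were split, with 8 of 35 higher in all mice and 9 lower. Kcnk2, a two-pore channel, had a ratio of 0.82 ± 0.19 and Kcnn3, a calcium-activated channel, 0.80 ± 0.22, against -0.64 ± 0.16 for Kcnip3.

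Among adhesion and guidance genes, Cntnap5b averaged 1170 CPM against 565 CPM (1.04 ± 0.15) and its relative Cntnap5a 675 CPM against 1204 CPM (-0.83 ± 0.13). The teneurins were divided in the same manner, with Tenm1 at 0.78 ± 0.10 and Tenm2 at -0.84 ± 0.12, and the presynaptic organiser Nrxn3 averaged 1400 CPM against 2991 CPM (-1.10 ± 0.19). In all, 8 of 32 such adhesion genes were higher and 6 lower in every mouse. Axon guidance genes had 6 of 33 higher and 13 lower, with a median of -0.13. Sema6d (325 against 689 CPM, -1.08 ± 0.14) and Epha4 (-0.64 ± 0.08) were lower, and the semaphorin receptor gene Nrp1 was higher (0.62 ± 0.09). Of 22 cadherins, 3 were higher and 6 lower, with Cdh13 at -1.28 ± 0.28 and Pcdh10 at 0.92 ± 0.21. Of 14 integrin genes 2 were higher, Itga7 (0.82 ± 0.23) and Itga4 (0.31 ± 0.13), and 3 lower.

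Of 16 immediate early genes, 4 were lower in all mice and none higher, beside 7.28% and 5.22% of all genes. Bdnf, the neurotrophin, averaged 47.3 CPM against 83.1 CPM (-0.78 ± 0.24), and Jun 36.9 CPM against 52.6 CPM (-0.49 ± 0.20). Their median was -0.04, the same as for all genes. Of 13 measured genes in a list of neuropeptides, granins and others, Penk, Bdnf, Chgb and Scg2 were lower in all mice and Nrn1 higher. Bdnf counts in both lists. The maturation marker Calb1, a calcium buffer, averaged 149 CPM against 78.5 CPM (0.88 ± 0.18). The immature neuron genes Dcx (9.78 against 18.4 CPM, -0.68 ± 0.32) and Sox11 (13.8 against 26.4 CPM, -0.76 ± 0.34) were lower in every mouse, the only 2 of the 6 measured neuroblast and immature granule markers with the same sign in all.

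Of 17 hormone receptor and glucocorticoid-responsive genes, 3 were higher in all mice and 3 lower, beside 5.22% and 7.28% of all genes. Nr3c2, the mineralocorticoid receptor, averaged 2085 CPM against 1281 CPM (0.70 ± 0.07), Thrb, a thyroid hormone receptor, 236 CPM against 120 CPM (0.95 ± 0.20), and Zbtb16 573 CPM against 385 CPM (0.57 ± 0.14). Sgk1, a kinase induced by corticosteroids, was lower at 39.0 CPM against 83.0 CPM (-1.01 ± 0.25), as were Prlr (6.54 against 15.3 CPM) and Pgr (12.4 against 20.1 CPM). Of 9 measured dopamine genes, 2 were lower in all mice and none higher, beside 7.28% and 5.22% of all genes. Only 5 of the 9 had counts enough for the group tests within the type. Drd1, a dopamine receptor gene, was lower in all mice at 0.773 CPM against 4.46 CPM (-0.70 ± 0.27). At that level the type held few UMIs of Drd1 per mouse. A further list held 18 genes, which were transcription factors graded along the dorsoventral axis and others. Of these, 5 were higher in all mice and 1 lower, led by Neurod2 (0.68 ± 0.16) and Rfx3 (0.58 ± 0.14). Lct, a marker of dorsal granule neurons, stood at 75.7 CPM against 57.6 CPM (0.36 ± 0.16), and Tox3, a ventral marker, at 14.3 CPM against 20.6 CPM, lower in 14 of 15 mice. The other listed dorsal marker, Gsg1l, is a gene of the rule and averaged 14.0 CPM against 143 CPM. These markers therefore did not all point the same way.

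Markers of other cell types were not equal between the types either. The sum of 6 GABAergic markers had a median of 1669 CPM in the Dsp and Chst9 nuclei and 2387 CPM in the Trpc6 and Gpc4 nuclei, in the same direction as the oligodendrocyte sums given above, and their part in the ratios of this size was not tested. None of the marker genes of CA1 and CA3 pyramidal cells, mossy cells, thalamic neurons, oligodendrocytes, astrocytes or microglia passed a mean ratio of 1 in size. Adarb2, listed as a GABAergic marker, was high in both types and lower in the Dsp and Chst9 type (1655 against 2362 CPM, -0.52 ± 0.13). Mbp of oligodendrocytes was lower in all mice (-0.43 ± 0.27), and Fibcd1, a CA1 marker, was higher (9.44 against 5.44 CPM, 0.44 ± 0.22).

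The first question of the design was whether RE, or stress within it, altered how many nuclei of the type were present. The type made up 13.0% to 18.5% of granule nuclei in the NP mice (median 15.6%), 14.3% to 16.5% in the control RE mice and 12.7% to 18.4% in the stress RE mice. The means were 15.8% ± 2.16 (SD, n = 6), 15.6% ± 0.968 (n = 4) and 15.6% ± 2.34 (n = 5), and the 3 ranges overlapped. By the two-sided exact permutation test, control RE differed from NP by -0.19 percentage points (p = 0.881), stress RE from control RE by 0.0057 points (p = 0.992) and stress RE from NP by -0.18 points (p = 0.890), all with an adjusted p of 0.992 over the 6 tests of shares. As a share of all barcodes with at least 500 genes, the NP mean was 2.09% ± 0.637, the control RE mean 2.49% ± 0.540 and the stress RE mean 2.30% ± 1.06, with exact permutation p-values of 0.343, 0.730 and 0.719. No difference exceeded the spread between mice. For control RE against NP the barcode share differed by 0.40 points over all mice, by 0.44 points in batch 2 and by -0.39 points in batch 3. The mean of these within-batch values was 0.026 points.

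Batches differed more than groups did. The share of granule nuclei was 12.7% to 15.5% in the 6 mice of batch 3, 16.1% to 18.0% in the 6 of batch 2 and 15.1% to 18.5% in the 3 of batch 1. Taken batch by batch, the control RE mean lay -0.71 points from the NP mean in batch 2 and 1.35 points from it in batch 3. For stress RE against control RE these values were 0.26 (batch 2) and -1.66 points (batch 3). For stress RE against NP they were 1.62, -0.45 and -0.31 points for batches 1, 2 and 3. With each barcode thinned to 3000 UMIs, which left 800 members, stress RE minus control RE was 2.19 points (exact permutation p = 0.127). Control RE minus NP was then -2.20 points (exact permutation p = 0.348). The SDs over mice in this setting were 4.12 (NP), 1.29 (control RE) and 2.24 points (stress RE).

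**Figure D4:**
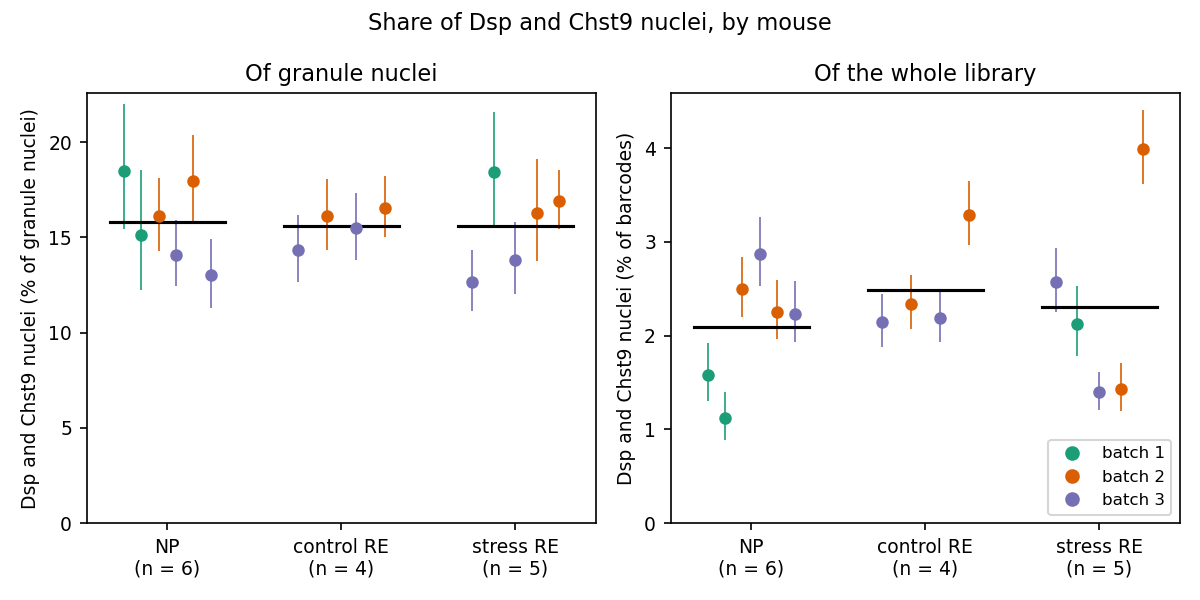
Dsp and Chst9 nuclei of each mouse as a percentage of granule nuclei (left y axis) and of barcodes with at least 500 genes (right y axis), by group on the x axis, with 95% Wilson intervals, batch by colour and group means as bars. Group means lie between 15.6% and 15.8% on the left and between 2.09% and 2.49% on the right, within the spread of mice.

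The second question was whether gene expression within the type differed between the groups. Counts summed per mouse were compared with edgeR's quasi-likelihood test over 12193 genes. For control RE against NP 1 gene passed an adjusted p of 0.05 (0.0082% of genes), and 368 (3.02%) lay below 0.05 before adjustment. Neither stress RE against control RE nor stress RE against NP gave any, with 296 (2.43%) and 290 genes (2.38%) below 0.05 in edgeR before adjustment and 0 calls in DESeq2. The gene that passed was Dach1, a transcriptional cofactor (chromosome 14, 97786853 to 98169765). It stood at 10.5 to 36.3 CPM in the NP mice (24.8 ± 9.44, n = 6), at 7.33 to 8.35 CPM in the control RE mice (7.94 ± 0.483, n = 4) and at 11.4 to 15.2 CPM in the stress RE mice (13.7 ± 1.59, n = 5). Every control RE mouse was below every NP and stress RE mouse, in a gene picked by its p-value. How many of all genes separate in this way was not counted. The log2 fold change of control RE against NP was -1.62 ± 0.23 (SE), with an edgeR adjusted p of 0.0199.

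The counts behind Dach1 were few. The 993 members of the NP mice held 326 UMIs of it in 126 nuclei and the 1061 of the control RE mice 92 in 66 nuclei. A UMI was seen in 9.33% to 15.98% of members in each NP mouse and 5.56% to 6.91% in each control RE mouse. These percentages are not scaled for depth. Members held a median of 11497 UMIs in NP and 9857 in control RE, as means over mice. The part of depth in these percentages was not tested. Nuclei marked as doublets held 91 of the NP and 28 of the control RE UMIs. In NP mouse 27, 33 of 42 UMIs came from 1 nucleus, and in NP mouse 37, 63 of 99 came from marked nuclei. The call held with another scaling (RLE), no filter on low counts, batch as a term or a sum of at least 5 (edgeR adjusted p from 0.0022 to 0.0395) and in DESeq2. It was lost without the marked nuclei (-1.56 ± 0.27, edgeR adjusted p = 0.217) and with 75 nuclei drawn from every mouse (-1.54 ± 0.53, edgeR adjusted p = 0.988). Without any of NP mice 27, 37, 63 or 73 or of the 4 control RE mice the edgeR adjusted p was 0.0515 to 0.185, with fold changes of -1.64 to -1.51. Dach1 in the Trpc6 and Gpc4 nuclei ranged over the NP mice from 19.5 to 28.8 CPM, over the control RE mice from 10.7 to 20.5 CPM and over the stress RE mice from 12.7 to 25.3 CPM, and the difference between types was not past the threshold (-0.995 ± 0.241, edgeR adjusted p = 0.261). Thalamic markers in the Dsp and Chst9 nuclei summed to 54.4 to 99.8 CPM in NP and 40.6 to 91.4 CPM in control RE, and oligodendrocyte markers to 153 to 291 CPM and 176 to 316 CPM. In the same order CA1 pyramidal markers summed to 255 to 347 CPM and 295 to 428 CPM. Ventral granule markers summed to 10.4 to 19.3 CPM and 16.1 to 28.6 CPM. Their part in the Dach1 difference was not tested.

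No member of the 31 lists passed in any contrast. The 3 genes with the smallest p-values for stress RE against control RE were Adamts19, Chst8 and Gm4258, with log2 fold changes of -1.67 ± 0.37, -1.40 ± 0.32 and -0.57 ± 0.13 and edgeR adjusted p-values of 1. Chst8, a sulfotransferase related to Chst9, stood at 8.80 to 11.0 CPM in control RE, 2.54 to 4.65 CPM in stress RE and 3.62 to 11.9 CPM in NP. For stress RE against NP they were Mettl4, Taf11 and Tbc1d14 (-0.78 ± 0.17, 0.78 ± 0.18 and -0.40 ± 0.09), none of which passed. The genes that chose the type are constrained by the rule in every group, so their levels are a description. Chst9 averaged 499 ± 43.1 CPM over the NP mice (n = 6), 540 ± 56.4 CPM over the control RE mice (n = 4) and 546 ± 56.3 CPM over the stress RE mice (n = 5), and Dsp 138 ± 25.4, 125 ± 12.1 and 130 ± 19.6 CPM. None of the 30 genes with the highest and lowest type ratios passed in any contrast. An unadjusted edgeR p under 0.05 was seen for 2 of the 30 in control RE against NP. It was seen for 1 in stress RE against control RE and 2 in stress RE against NP. Of all genes, 3.02%, 2.43% and 2.38% had such a p in the same order.

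The third question was whether a group difference in this type differed from that in the Trpc6 and Gpc4 type, tested by edgeR with each mouse as a block over 14234 genes. None passed for control RE against NP or stress RE against NP, where 712 (5.0%) and 643 genes (4.52%) lay below 0.05 before adjustment. DESeq2 called 0 in both. Without nuclei marked as doublets 25 genes passed for stress RE against NP. The smallest p-values for control RE against NP were those of Etl4 (0.78 ± 0.16), Gm20319 (-0.40 ± 0.08) and Gm2164 (1.30 ± 0.28), with edgeR adjusted p-values of 0.172, 0.172 and 0.238. Etl4 turned to -0.20 ± 0.18 without nuclei marked as doublets. For stress RE against NP they were those of Pcdh15, Maob and Ccdc3, with edgeR adjusted p-values of 0.193, 0.321 and 0.433. For stress RE against control RE 1 gene passed in edgeR (0.00703%), with 789 genes (5.54%) at an unadjusted p under 0.05, and 0 passed in DESeq2. This was Adamts19, a secreted metalloprotease. In the Dsp and Chst9 nuclei it stood at 8.35 to 24.3 CPM in control RE and 1.27 to 8.24 CPM in stress RE, while in the Trpc6 and Gpc4 nuclei it stood at 4.70 to 8.59 CPM and 3.13 to 12.2 CPM. The difference of differences was -2.18 ± 0.37 (log2, SE), with an edgeR adjusted p of 0.0242.

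The counts of Adamts19 were also few. Control RE members held 167 UMIs of it in 51 nuclei, 107 of them in nuclei marked as doublets. In control RE mouse 66, 29 of 40 UMIs lay in 1 nucleus, and in control RE mouse 87, 60 of 69 lay in marked nuclei. Without the marked nuclei the value was -1.65 ± 0.48 (edgeR adjusted p = 0.508). Leaving out control RE mouse 87 gave -1.73 (edgeR adjusted p = 0.215). Leaving out any of stress RE mice 43, 70, 77 or 90 gave -2.30 to -2.05, with edgeR adjusted p-values of 0.0550 to 0.229. The call held with RLE scaling and with no filter. Among the 30 genes of the type, Sorcs3 had type ratios in the NP, control RE and stress RE mice of -1.55 ± 0.26, -0.91 ± 0.48 and -1.33 ± 0.33, and Rasgrp1 -1.60 ± 0.40, -1.11 ± 0.11 and -1.39 ± 0.25. Of the 30, 7 had an unadjusted p under 0.05 for control RE against NP, 7 for stress RE against control RE and 1 for stress RE against NP, beside 5.0%, 5.54% and 4.52% of all genes, and none passed after adjustment. The first 2 contrasts share the 4 control RE mice, and the 30 genes were picked by the type ratio itself. Members held a median of 9857 UMIs in control RE, 11497 in NP and 11500 in stress RE, as means over mice. The part of this difference in depth in the type ratios was not tested.

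**Figure D5:**
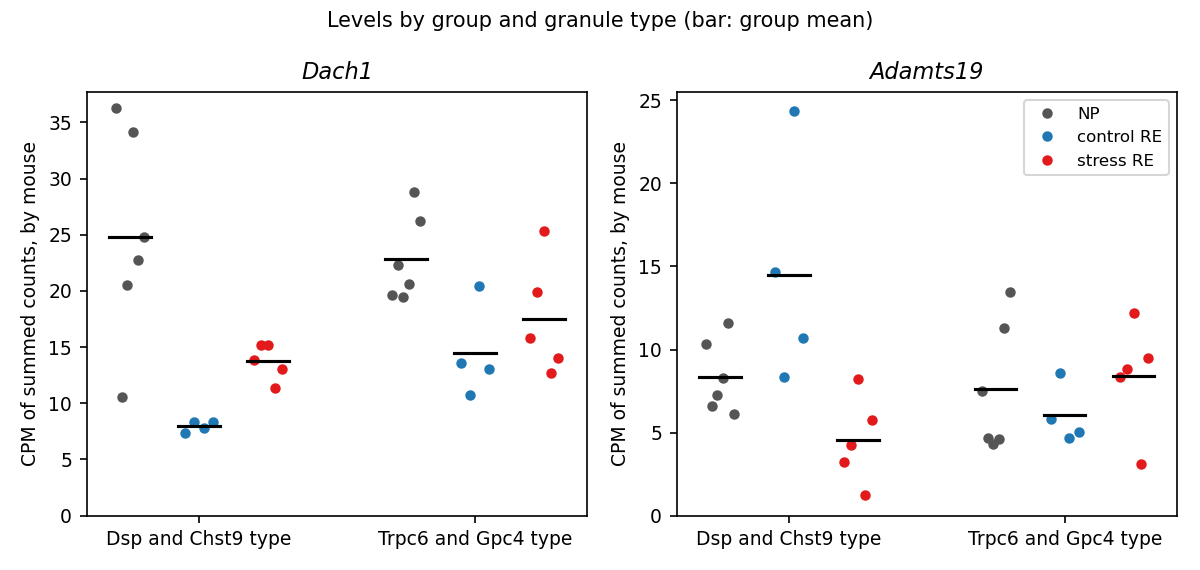
Levels of Dach1 (left) and Adamts19 (right) in CPM of summed counts (y axes) in the Dsp and Chst9 and the Trpc6 and Gpc4 nuclei (x axis), with 1 point per mouse coloured by group and bars at group means. Both genes were picked by their p-values. In the Dsp and Chst9 nuclei the 4 control RE mice lie at 7.33 to 8.35 CPM for Dach1, and the lowest NP mouse at 10.5 CPM. For Adamts19 they lie at 8.35 to 24.3 CPM, and the 5 stress RE mice at 1.27 to 8.24 CPM.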

How the data were processed

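snRNA-seq libraries of 15 mice were grouped by the labels into 6 NP mice, 4 mice of the control RE group and 5 of the stress RE group. Per the study's methods, the authors made the deposited UMI counts with Cell Ranger 7.1.0 on the mm10 reference (GRCm38). Those counts cover 32285 genes and are whole numbers. The study's methods then used SoupX for ambient RNA and DoubletFinder for doublets, and neither step was repeated here. Of the deposited barcodes, 783 had under 500 genes and were left out. Scrublet in scanpy 1.11.5 scored barcodes, and the highest scores of each library were marked as doublets, at 0.8% per 1000 barcodes. Marked barcodes stayed in the main results. Counts were summed per mouse and type. They were tested with edgeR 4.0.16 (R 4.3.3, TMM factors, filterByExpr, Benjamini-Hochberg adjustment), with DESeq2 1.42.0 as an alternative. Shares were compared by exact permutation over mice. The smallest p these allow is 0.0048 for control RE against NP, 0.0079 for stress RE against control RE and 0.0022 for stress RE against NP. Wilson intervals (95%) and the spread of summed counts cover counting error and mice, not repeat libraries. CPM used total counts and a pseudocount of 5. Gene positions are from GENCODE for GRCm38. Named genes were the rule genes, the calls (or the 3 smallest p) of each contrast, and the 15 highest and 15 lowest type ratios with the same sign in all mice and at least 20 CPM in the higher type, with list members of largest ratio as examples. Members and lists were chosen with earlier results of these data known. The labels do not say that mice of a group came from separate cohorts. Alternatives are given in the closing section.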

Additional observations from a re-analysis of the deposited data

Results flagged for a closer look

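The share of the Dsp and Chst9 type among barcodes was far higher in control RE mouse 88 (3.29%) than in the next control RE mouse (2.34%), a gap of 0.831 of the range of the 4 control RE mice. It was the only such value among 39 groups of mice examined, where chance flags about 1 in 20. Its share of granule nuclei, 16.5%, was not set apart, and granule nuclei made up 19.9% of its library.

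The difference between stress RE and control RE for Adamts19 differed between the granule types by -2.18 on the log2 scale (edgeR adjusted p = 0.0242). The value without nuclei marked as doublets was -1.65, with an adjusted p of 0.508.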

How the results depend on the processing

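No paired analysis was possible because the labels give the mice no replicate numbers, and those used here only name samples in accession order. With batch as a term, the contrasts within the type gave 1, 0 and 0 genes (Dach1 -1.62, edgeR adjusted p = 0.0395). In the main setting the differences in the share of granule nuclei were within the spread of mice. Over the settings they had no stable sign. With labels permuted within batches, an alternative chosen after seeing the data, control RE minus NP was 0.32 percentage points, stress RE minus control RE -0.70 and stress RE minus NP 0.29. For the share of barcodes the same setting gave 0.026, -0.14 and 0.18 points. Stress RE minus control RE was -0.065 without barcodes marked as doublets and -0.021 over the nuclei of the 2 types. Leaving out 1 mouse at a time gave -0.75 to 0.35, -0.70 to 0.74 and -0.88 to 0.56 points of granule nuclei, and 0.13 to 0.55, -0.61 to 0.080 and -0.21 to 0.44 points of barcodes, in the same order of contrasts. Within the type, control RE against NP gave 2 genes in DESeq2, 0 without marked nuclei, 0 with equal nuclei per mouse and 0 to 1 without single mice, while the other contrasts stayed at 0 to 0. For differences between types, no filter on low counts gave 67, 95 and 42 genes. Without marked nuclei stress RE against control RE gave 4 and stress RE against NP 25, and DESeq2 gave 0 for stress RE against control RE. Single mice left out gave 0 to 1, 0 to 12 (12 without control RE mouse 88, 7 without control RE mouse 66) and 0 to 2 genes (2 without NP mouse 63). The type ratio counted 63 higher and 154 lower genes at a pseudocount of 1 CPM, 14 and 15 at 20 CPM, 41 and 47 under TMM library sizes, 43 and 77 with thinned nuclei, and 34 to 37 and 53 to 58 without single mice. Without marked nuclei it counted 45 and 73, against 35 and 56 in the main setting. Genes with 1 sign in all mice went from 742 higher and 1035 lower to 905 and 825 under TMM, and to 432 and 529 with thinned nuclei. Etl4 turned to -0.20 without marked nuclei. Of 903 other values of 43 named type ratios, the 13 rule genes among them, 863 stayed within 1 SD over mice and 40 did not. Leaving out 1 of 15 mice cannot move a mean by 1 SD, so those values were bound to stay. All 40 came from the other settings, 8 of them from settings other than the pseudocount. Among ratios of at least 1 in size, 0 turned sign, and smaller ratios were not examined for this. The cause of these changes was not tested. Few UMIs per mouse limit genes at low CPM.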
